A study of Mus musculus with 6 samples.

Results

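Star, Cyp11a1, Hsd3b1, Hsd3b6, Cyp21a1, Cyp11b1 and Cyp11b2 carry cholesterol through the core of adrenal steroid synthesis, and their RNA was followed across the zones of the mouse adrenal cortex. The 7 genes were taken by symbol from the feature lists of all libraries, out of 30406 genes that those lists share. The libraries hold single nuclei from whole adrenal glands of female C57BL/6 J mice aged 10 to 11 months, with 1 pair of glands per library. The groups are Tmem127 wild type (WT, 3 libraries) and Tmem127 knockout (KO, 2 libraries). The labels do not say how Tmem127 was deleted, in which cells, or which part of the gene is missing. The labels of a sixth library disagree, with WT in its title and KO as its genotype. It was left unassigned, enters the comparison of KO with WT only in alternatives that count it once as KO and once as WT, and is used for comparisons of zones, where no genotype is needed.

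Steroid synthesis in the cortex starts when Star, a carrier protein of the mitochondrial surface, lets cholesterol reach the inner membrane. There Cyp11a1 cuts the cholesterol side chain to give pregnenolone, and the enzymes of the Hsd3b family turn pregnenolone into progesterone. Cyp21a1, in the endoplasmic reticulum, hydroxylates progesterone to deoxycorticosterone. Cyp11b1, the 11-beta-hydroxylase, then makes corticosterone, the main glucocorticoid of mice, while Cyp11b2, the aldosterone synthase, makes aldosterone. The zona glomerulosa under the capsule is the source of aldosterone and the zona fasciculata further in is the source of corticosterone. In the mouse, Hsd3b6 is known as the family member of the zona glomerulosa, beside the more widely used Hsd3b1.

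Both pairs of paralogs lie side by side in the mm10 genome. Hsd3b1 (ENSMUSG00000027871) lies on the minus strand at chr3:98852194-98859794 and Hsd3b6 (ENSMUSG00000027869) on the same strand at chr3:98805504-98814443, 37750 bases away with 5 annotated pseudogenes between them. Cyp11b1 (ENSMUSG00000075604) lies on the minus strand at chr15:74834125-74841643 and Cyp11b2 (ENSMUSG00000022589) on the same strand at chr15:74851010-74856318, 9366 bases away with no gene between. Star is at chr8:25806555-25815982 (plus strand), Cyp11a1 at chr9:58006411-58027023 (plus strand) and Cyp21a1 at chr17:34801348-34804561 (minus strand). Gene models on the opposite strand overlap Cyp11b1 (Gml2, protein coding) and Cyp21a1 (Tnxa, a pseudogene), and a lincRNA on the same strand overlaps Cyp11a1 (Gm17322). No source used here says whether the counting used strand, so UMIs from these overlaps cannot be told apart.

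How far the paralogs differ where reads fall decides how well a read can be placed. Their coding sequences were compared, and the ends of the Cyp11b pair are shown. Untranslated ends and introns, where reads can also fall, were not compared. Over the whole coding sequence, Hsd3b1 and Hsd3b6 were identical at 89.99% of aligned bases, and their longest shared run was 72 bases. Cyp11b1 and Cyp11b2 were identical at 86.9%, with a longest shared run of 244 bases. The last 90 coding bases of Cyp11b1 and Cyp11b2 before the stop codon follow, read from the mm10 genome and its annotation, with capitals where a base differs from the paralog.
Cyp11b1: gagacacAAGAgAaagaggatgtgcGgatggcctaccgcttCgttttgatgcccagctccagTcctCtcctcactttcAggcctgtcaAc
Cyp11b2: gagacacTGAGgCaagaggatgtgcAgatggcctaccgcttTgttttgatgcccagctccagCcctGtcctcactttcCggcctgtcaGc
In this stretch the Cyp11b pair differed at 11 bases. The sources used here do not say how reads that fit both members of a pair were treated, so the split of UMIs within each pair carries that uncertainty.

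The Hsd3b paralogs went in opposite directions between zones, as described further on, so the 250 bases before each start are also shown, from RefSeq on GRCm38.p6 (chr3:98859795-98860044 and chr3:98814444-98814693, both minus strand). Capitals mark TATTTAAA.
Hsd3b1: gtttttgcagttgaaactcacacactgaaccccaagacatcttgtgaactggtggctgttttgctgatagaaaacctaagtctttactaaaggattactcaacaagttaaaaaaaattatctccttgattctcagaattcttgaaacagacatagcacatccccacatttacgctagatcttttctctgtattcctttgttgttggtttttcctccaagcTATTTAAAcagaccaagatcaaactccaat
Hsd3b6: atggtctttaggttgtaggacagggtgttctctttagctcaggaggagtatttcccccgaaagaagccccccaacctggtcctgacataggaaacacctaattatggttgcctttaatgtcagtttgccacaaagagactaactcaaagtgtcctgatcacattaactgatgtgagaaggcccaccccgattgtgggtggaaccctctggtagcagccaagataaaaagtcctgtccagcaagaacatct
The 2 windows were identical at 46.4% of aligned positions, against 89.99% for the coding sequences. No value for unrelated windows was taken, so the 46.4% is not read as conservation. TATTTAAA begins 30 bases before the Hsd3b1 start and is found, on either strand, in 1.71% of 32851 promoter windows of this length. Neither window held AAGGTCA (4.08% of windows), TATAAA (12.4%), TGACGTCA (1.55%) or TTACGTAA (0.113%), and that of Hsd3b6 held none of the 5 motifs. The windows listed for Cyp11a1 (chr9:57997774-57998023 and chr9:58014702-58014951, plus strand) also held none of the 5. Neither of these ends at the start of the Cyp11a1 gene model given above, so the bases before that start were not read. The set of motifs was settled in part after the sequences had been read.

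The libraries held 21724 barcodes and from 4825169 to 43377724 UMIs each, with a median of 1289 to 7675 UMIs per barcode. After filtering and removal of marked doublets, 21034 nuclei remained, and any pair of libraries shared 2 to 9 barcodes. Levels are in CPM, a gene's UMIs per 1e+06 UMIs of its library or class. For Tmem127 they were 45.85 and 45.01 CPM in the KO libraries, at 38.0, 38.1 and 36.1 CPM in WT, against 36.4 CPM for the unassigned library. Since the deleted part is not given, these levels check no label. Cortical classes held 9456 nuclei (44.96%). They were found without use of the 7 genes, so that these did not define the classes, and other genes of the cortex did. The zona glomerulosa-like (ZG-like) class had 2110 nuclei and 8 of 12 listed markers, among them Agtr1b, Vsnl1 and Dab2. The zona fasciculata-like (ZF-like) class had 2433 nuclei and 4 of 8 markers. A class of 1282 nuclei was called inner cortex-like from Akr1d1, Cyp2f2 and Thrb, although Akr1c18, a marker of the X-zone, was found in 0.312% of its nuclei. A class of 1111 nuclei had Tnc among its leading genes, and a class of 2520 was led by Cthrc1. Both fell between ZG-like and ZF-like nuclei in their levels of Agtr1b and Abcb1b. They reached too few zone markers for a name and are called the Tnc cluster and the Cthrc1 cluster. The nuclei carry no positions, so the order of classes, and words such as inwards or neighbouring, describe RNA levels only.

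Star RNA rose from the ZG-like class inwards. In ZG-like nuclei its level had a lowest value of 213, a median of 330 and a highest of 556 CPM over the 6 libraries, and in ZF-like nuclei a lowest of 782, a median of 1149 and a highest of 2666 CPM. No library's ZF-like value fell within the ZG-like range. The mean went from 340 ± 124 CPM (SD, n = 6) in ZG-like nuclei through 412 ± 208 in the Tnc cluster, 811 ± 439 in the Cthrc1 cluster and 1380 ± 713 in ZF-like nuclei to 1682 ± 861 in inner cortex-like nuclei. The unassigned library was the highest in every class, and within each library the last 3 steps had the same direction in 6 of 6. The first step, from ZG-like to Tnc cluster, had that direction in 4 of 6.

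Cyp11a1, which commits cholesterol to steroids, peaked in ZF-like nuclei. Its level ran from 342 through a median of 391.8 to 568 CPM in ZG-like nuclei and from 959 through 1129 to 2249 CPM in ZF-like nuclei. Inner cortex-like nuclei held 925 ± 490 CPM (SD, n = 6), below the 1380 ± 540 CPM of ZF-like nuclei in 6 of 6 libraries. Inner cortex-like and Cthrc1 cluster nuclei could not be ordered for this gene, since the first was higher in 3 of 6 libraries. Cyp11a1 was thus past its peak in the class where Star was highest.

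Hsd3b1, the broad dehydrogenase, followed Star more closely. ZG-like values ran from 253 through 465 to 594 CPM and ZF-like values from 700 through 1245 to 1866 CPM. The means were 447 ± 117 CPM (SD, n = 6) in ZG-like, 593 ± 147 in Tnc cluster, 957 ± 346 in Cthrc1 cluster, 1247 ± 502 in ZF-like and 1351 ± 468 in inner cortex-like nuclei. ZF-like and inner cortex-like nuclei were ordered this way in 4 of 6 libraries. For Hsd3b1 the unassigned library had the lowest value in the 4 outer classes, the reverse of its place for Star.

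Cyp21a1, the 21-hydroxylase, kept 1 order of classes in every library. It stood at 1219 ± 140 CPM (SD, n = 6) in ZG-like nuclei, 1440 ± 122 in Tnc cluster, 1970 ± 148 in Cthrc1 cluster, 3131 ± 372 in ZF-like and 2773 ± 465 in inner cortex-like nuclei, and the order ZF-like, inner cortex-like, Cthrc1 cluster, Tnc cluster, ZG-like held in all 6 libraries. The ZG-like range of 984 to 1355 CPM and the ZF-like range of 2467 to 3469 CPM did not meet.

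Cyp11b1, the last step to corticosterone, had the widest span of the genes that rose inwards. ZG-like values ran from 144 through 183 to 219 CPM and ZF-like values from 1132 through 1622 to 1812 CPM. Its sharpest step lay between the Tnc cluster, at 201 to 383 CPM, and the Cthrc1 cluster, at 740 to 1134 CPM, which did not overlap. Inner cortex-like nuclei held 746 to 1519 CPM, below ZF-like nuclei in 6 of 6 libraries.

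**Figure D1:**
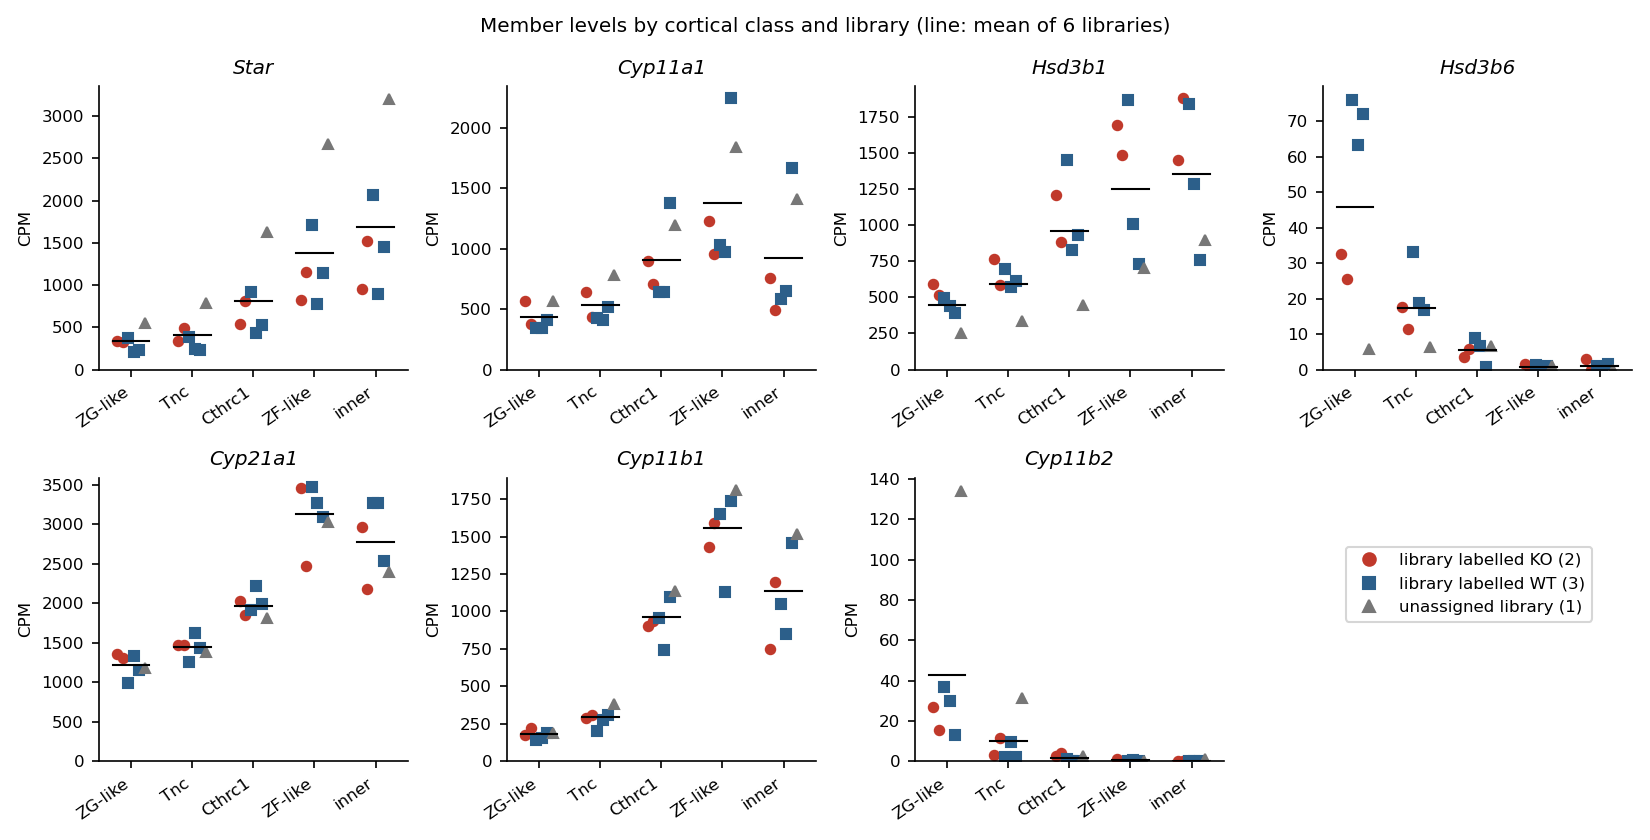
Level of each gene (CPM, linear axis from 0) in the 5 cortical classes, with 1 point per library (red circles KO, blue squares WT, grey triangle unassigned) and a line at the mean of 6 libraries. Star, Cyp11a1, Hsd3b1, Cyp21a1 and Cyp11b1 climb from ZG-like to ZF-like nuclei, while Hsd3b6 and Cyp11b2 are high in ZG-like nuclei and lie under 2 CPM in ZF-like nuclei.

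Hsd3b6 and Cyp11b2 had the opposite course. Hsd3b6 stood at 32.6 and 25.5 CPM in ZG-like nuclei of the KO libraries, at 76.1, 63.4 and 71.9 CPM in WT, against 5.86 CPM for the unassigned library. In the Tnc cluster it held 17.7 and 11.6 CPM in KO, 33.1, 18.9 and 16.8 CPM in WT, against 6.26 CPM for the unassigned library. So the unassigned library showed no fall from ZG-like to Tnc cluster nuclei, while the other 5 did. Cthrc1 cluster nuclei held 0.727 to 8.90 CPM, and ZF-like nuclei held 21 Hsd3b6 UMIs in all 6 libraries together, with 0 in 2 libraries, where 3 UMIs would have been 4.502 and 2.106 CPM.

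Cyp11b2 in ZG-like nuclei was counted at 26.9 and 15.3 CPM in KO libraries, at 36.7, 30.01 and 13.1 CPM in WT, against 134 CPM (exact 95% Poisson interval 121 to 149, counting error only) for the unassigned library. KO and WT values overlapped, and the unassigned library lay far above all of them. The Tnc cluster held 1.87 to 11.6 CPM in the KO and WT libraries and 31.3 CPM in the unassigned one. ZF-like nuclei held 8 Cyp11b2 UMIs over the 6 libraries and inner cortex-like nuclei 1. The library with the most Cyp11b2 in ZG-like nuclei was thus the one with the least Hsd3b6 there.

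Each zone contrast was tested within libraries (edgeR quasi-likelihood test on summed UMIs with a term per library, n = 6 libraries, p adjusted over all genes tested). Many genes differ between classes, partly since such genes defined them, so the share of all genes called is given beside each count. Between ZG-like and ZF-like nuclei 7 of 7 genes were called, against 45.6% of all genes tested. Lower in ZG-like nuclei were 5 genes, Cyp11b1 by a log2 fold of -3.12 ± 0.13 (SE), Star -1.96 ± 0.15, Cyp11a1 -1.61 ± 0.16, Hsd3b1 -1.42 ± 0.13 and Cyp21a1 -1.36 ± 0.12. Higher in ZG-like nuclei were Cyp11b2, by 6.55 ± 0.35, and Hsd3b6, by 5.56 ± 0.37. The largest adjusted p among the 7 was 2.65e-06. The folds of Hsd3b6 and Cyp11b2 rest on the few UMIs of the ZF-like class. When the level in non-cortical nuclei of the same library was subtracted first, the mean log2 ratio over the 6 libraries was -3.61 for Cyp11b1, -2.30 for Star and -1.85 for Cyp21a1.

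The steps between neighbouring classes were not equal. From ZG-like to the Tnc cluster 6 of 7 genes were called, against 12% of all genes: Cyp11b2 (2.56 ± 0.21 higher in ZG-like, log2, SE) and Hsd3b6 (1.31 ± 0.16) on one side, and Cyp11b1 (-0.69 ± 0.07), Hsd3b1, Cyp11a1 and Cyp21a1 on the other. Star, at -0.17 ± 0.07, missed the threshold (edgeR adjusted p = 0.130). Library by library, the log2 ratios of this step spread more widely than these SE. For Hsd3b6 they ran from -0.09 to 2.10 (exact sign-flip p = 0.0625) and for Cyp11b2 from 0.40 to 4.25 (exact sign-flip p = 0.03125). Between the Tnc cluster and the Cthrc1 cluster 7 of 7 were called, against 21.7% of all genes, led by Cyp11b2 (2.25 ± 0.48 higher in the Tnc cluster), Hsd3b6 (1.81 ± 0.31) and Cyp11b1 (-1.74 ± 0.08). The Cyp11b2 call of this step was lost without the unassigned library. For Hsd3b6 the log2 ratio of this step ran from -0.11 to 4.53 over the libraries (exact sign-flip p = 0.0625). From the Cthrc1 cluster to ZF-like nuclei 6 of 6 genes tested were called, against 31.4%: Hsd3b6 was higher in the Cthrc1 cluster (2.37 ± 0.42) and the other 5 were lower there, from -0.38 ± 0.10 for Hsd3b1 to -0.81 ± 0.07 for Star.

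The genes parted again at the inner end of the cortex. Between inner cortex-like and ZF-like nuclei 4 of 5 genes tested were called, against 24.8% of all genes. Star was higher in inner cortex-like nuclei, by 0.29 ± 0.06 on the log2 scale (SE, edgeR adjusted p = 0.000678), in 6 of 6 libraries. Cyp11a1 (-0.62 ± 0.07), Cyp11b1 (-0.48 ± 0.08) and Cyp21a1 (-0.18 ± 0.06, adjusted p = 0.0380) were lower. The Cyp21a1 call was lost without the unassigned library. Hsd3b1, at 0.14 ± 0.07, was not called (edgeR adjusted p = 0.200).

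Within each pair of paralogs the mix of RNA shifted with the zone. Hsd3b6 made up 5.20% and 4.73% of the Hsd3b1 and Hsd3b6 UMIs of ZG-like nuclei in KO, 13.4%, 12.7% and 15.5% in WT, against 2.27% for the unassigned library. The Tnc cluster had 1.84% to 4.54%, and ZF-like nuclei had a mean of 0.0694% ± 0.0597 (SD, n = 6). ZG-like nuclei exceeded the Tnc cluster by 6.21 percentage points ± 4.84 (SD over 6 libraries), in 6 of 6 libraries (exact two-sided sign-flip test, p = 0.03125, the smallest that 6 libraries allow). The Tnc cluster exceeded the Cthrc1 cluster by 2.09 points ± 1.22, also in 6 of 6 (exact p = 0.03125), and the Cthrc1 cluster exceeded ZF-like nuclei by 0.589 points in 5 of 6 (exact p = 0.0625).

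Cyp11b2 made up 13.3% and 6.52% of the Cyp11b1 and Cyp11b2 UMIs of ZG-like nuclei in KO, 20.3%, 16.2% and 6.42% in WT, against 41.3% (exact 95% binomial interval 38.0% to 44.6%) for the unassigned library. Cyp11b1 was thus the larger part of the pair's UMIs in ZG-like nuclei of every library, with no background subtracted. Non-cortical nuclei held 37.4 to 54.0 CPM of Cyp11b1, against 144 to 219 CPM in ZG-like nuclei, and at most 0.517 CPM of Cyp11b2. In the unassigned library ZG-like nuclei held 191 CPM of Cyp11b1 and 134 of Cyp11b2, and its non-cortical nuclei 53.0 and 0.517 CPM. Which paralog leads without background was not tested. For the Cyp11b2 share, ZG-like nuclei exceeded the Tnc cluster by 14.5 points ± 11.0 (SD) in 6 of 6 libraries (exact sign-flip p = 0.03125). The Tnc cluster exceeded the Cthrc1 cluster by 2.68 points ± 2.59 in 6 of 6 (exact sign-flip p = 0.03125). In ZF-like nuclei the share was at most a trace, 0.0274% ± 0.0304 (SD, n = 6).

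**Figure D2:**
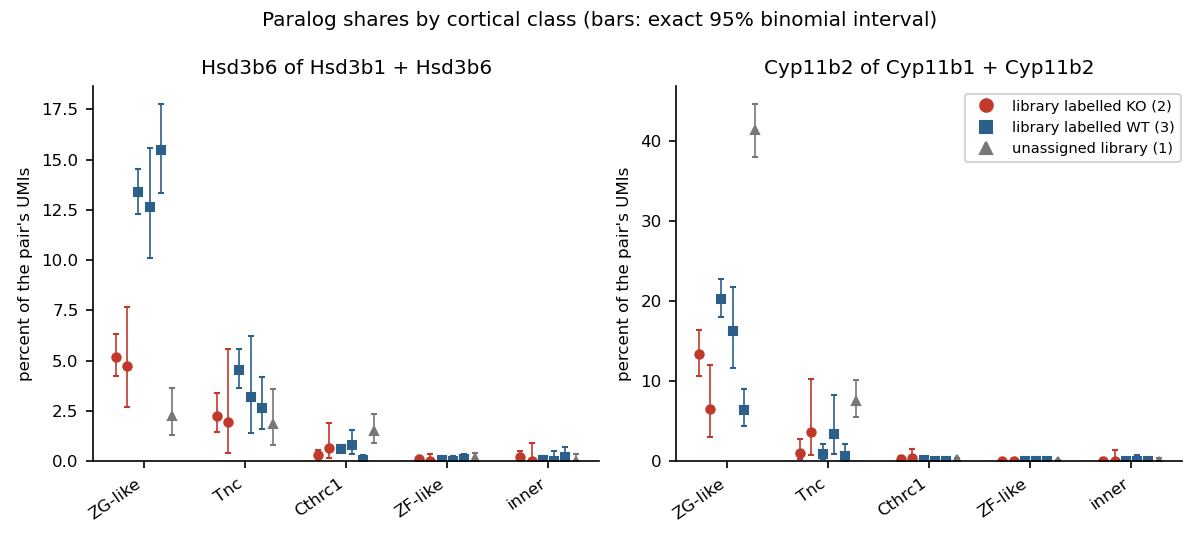
Share of a pair's UMIs that belong to Hsd3b6 (left) or Cyp11b2 (right), in percent on an axis from 0, for each cortical class and library, with exact 95% binomial intervals. Hsd3b6 in ZG-like nuclei lies at 12.7% to 15.5% in the 3 WT libraries and at 4.73% and 5.20% in the 2 KO libraries, and Cyp11b2 reaches 41.3% in the unassigned library.

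Detection per nucleus was compared after each nucleus was thinned to 1000 UMIs, with shallower nuclei left out (31 of the ZG-like, 49 of the ZF-like and 791 of the endothelial-like). Cyp11b1 was found in 15.1% ± 2.25 of ZG-like and 74.2% ± 6.57 of ZF-like nuclei (SD, n = 6 libraries), and Star in 26.4% ± 9.44 and 66.05% ± 15.4. Cyp21a1 was found in 68.5% ± 5.05 and 93.0% ± 2.86. Endothelial-like nuclei, which should lack these genes, still gave 5.12% for Cyp11b1, 8.62% for Star and 33.7% for Cyp21a1. These shares are set beside the ZG-like ones, but the background of ZG-like nuclei was not measured and can differ. Without thinning the ZG-like shares were 44.7%, 71.5% and 97.3%, at a median depth per library of 2084 to 11857 UMIs against 855 to 3456 in endothelial-like nuclei. Hsd3b6 was found in 3.599% ± 2.51 of thinned ZG-like nuclei and Cyp11b2 in 3.47% ± 3.87, against 0.110% and 0.0553% in endothelial-like nuclei. At this depth a nucleus that holds either RNA can give no UMI of it, so the shares are no count of expressing cells.

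Joint detection of the paralogs was counted in single nuclei. Of 2079 thinned ZG-like nuclei pooled over the libraries, 74 held Cyp11b2, and 5 of those (6.76%) also held Cyp11b1, against 14.9% of the nuclei without Cyp11b2. For Hsd3b6 there were 81 nuclei, of which 20 (24.7%) also held Hsd3b1, against 35.5% of those without. Both Cyp11b2 and Hsd3b6 were found in 1 nucleus after thinning and in 43 of the 338 nuclei with Cyp11b2 before it. These counts pool libraries that differ in all 4 genes, 39 of the 74 Cyp11b2 nuclei came from the unassigned library, and the difference was not tested. Before thinning, 146 of 338 ZG-like nuclei with Cyp11b2 also held Cyp11b1.

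Likeness to other genes was read from Pearson's r of log2(CPM + 1) over 30 sums of class and library, with each library's mean removed, among 6430 genes with a mean of at least 20 CPM. The points share libraries and the classes share their borders, so r is given as a description. Nearest to Star were Frmd5 (r = 0.99), C4b (0.98) and the nuclear RNA Neat1 (0.98). Hsd3b1 was nearest to Nr1h4, the bile acid receptor (0.97), Fads6 (0.96) and Trim30d (0.94). Cyp11a1 was nearest to Myo10 (0.96), Gm28382 and Cdr2l (both 0.95), and Cyp11b1 to Myof, Dpf3 and Spata13 (all 0.97). Cyp21a1 was nearest to Mapk8ip3 (0.98), the drug transporter Abcb1b (0.97), which is also a listed ZF marker, and AC149090.1 (0.96). Among the genes nearest to Hsd3b6 were Pcdh19 and Amph (both 0.93), and Cyp11b2 was nearest to Fam19a4, Gm20732 and St6galnac3 (all 0.93). Among the 7 genes r ran from 0.73 (Cyp11a1 with Hsd3b1) to 0.94 (Star with Cyp21a1) for the 5 that rose inwards, was 0.82 between Hsd3b6 and Cyp11b2, and was negative between these 2 and the other 5.

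KO was compared with WT in each class on UMIs summed per library (edgeR quasi-likelihood test with a term for gene annotation, which splits the libraries into KO 1 with WT 1 and KO 2 with WT 2 and 3). In ZG-like nuclei Hsd3b6 was lower in KO and was the 1 gene called of 7 tested, against 0.667% of all genes (71 of 10652). Its mean level was 29.1 ± 5.01 CPM (SD, n = 2) in KO and 70.5 ± 6.52 CPM (n = 3) in WT. The highest KO value, 32.6 CPM (exact 95% Poisson interval 26.3 to 40.0), lay below the lowest WT value, 63.4 CPM (49.9 to 79.3). Of all genes tested, 11.9% had both KO libraries below all WT libraries. The log2 fold of Hsd3b6 was -1.29 ± 0.21 (SE, edgeR adjusted p = 0.00622). KO lay below WT within both annotations. The call was lost, at a like fold, without KO 1 (adjusted p = 0.239), WT 1 (0.253) or KO 2 (0.0991) and without the annotation term (0.183), and remained without WT 2 or WT 3 and under DESeq2 (0.0108). The unassigned library, at 5.86 CPM, lay below both groups, and with it counted as KO the fold was -1.95 and as WT -1.08, with no call either way (adjusted p = 1.00 and 0.639).

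The share within the pair does not depend on library size. Hsd3b6 made up 4.97% ± 0.33 (SD, n = 2) of the pair's UMIs in KO and 13.8% ± 1.45 (n = 3) in WT, a difference of -8.87 percentage points (exact permutation test, two-sided, p = 0.1, the smallest that 2 against 3 libraries allow). Thinned to 1000 UMIs, 4.23% and 0.893% of ZG-like nuclei held Hsd3b6 in KO, against 5.78%, 5.25% and 5.45% in WT. In the unassigned library 0 of 345 did at this depth, and 12 of the 345 held Hsd3b6 before thinning. In the Tnc cluster the share of the pair was 2.11% ± 0.23 for KO libraries and 3.47% ± 0.97 for WT libraries, by an exact permutation test with p = 0.2.

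The other 6 genes were not called in ZG-like nuclei. Hsd3b1 had the larger level in KO, at 594 and 514 CPM against 493, 437 and 393 CPM in WT. The groups did not overlap, and 14.2% of all genes tested lay higher in KO in this way. For Hsd3b1 the log2 fold was 0.28 ± 0.13 (SE, edgeR adjusted p = 0.390). Cyp11a1 stood at 565 and 376 CPM in KO and 342, 348 and 408 CPM in WT (0.33 ± 0.16, edgeR adjusted p = 0.434), with overlap. Cyp11b1 stood at 175 and 219 CPM in KO and 144, 155 and 191 CPM in WT (0.30 ± 0.14, edgeR adjusted p = 0.412), also with overlap. Folds were 0.18 ± 0.15 for Star, 0.24 ± 0.14 for Cyp21a1 and -0.44 ± 0.33 for Cyp11b2. The share of Cyp11b2 in its pair was 9.93% ± 4.82 for KO libraries and 14.3% ± 7.12 for WT libraries, by an exact permutation test with p = 0.5. Intervals this wide leave room for sizeable differences, so no likeness of KO and WT is shown.

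**Figure D3:**
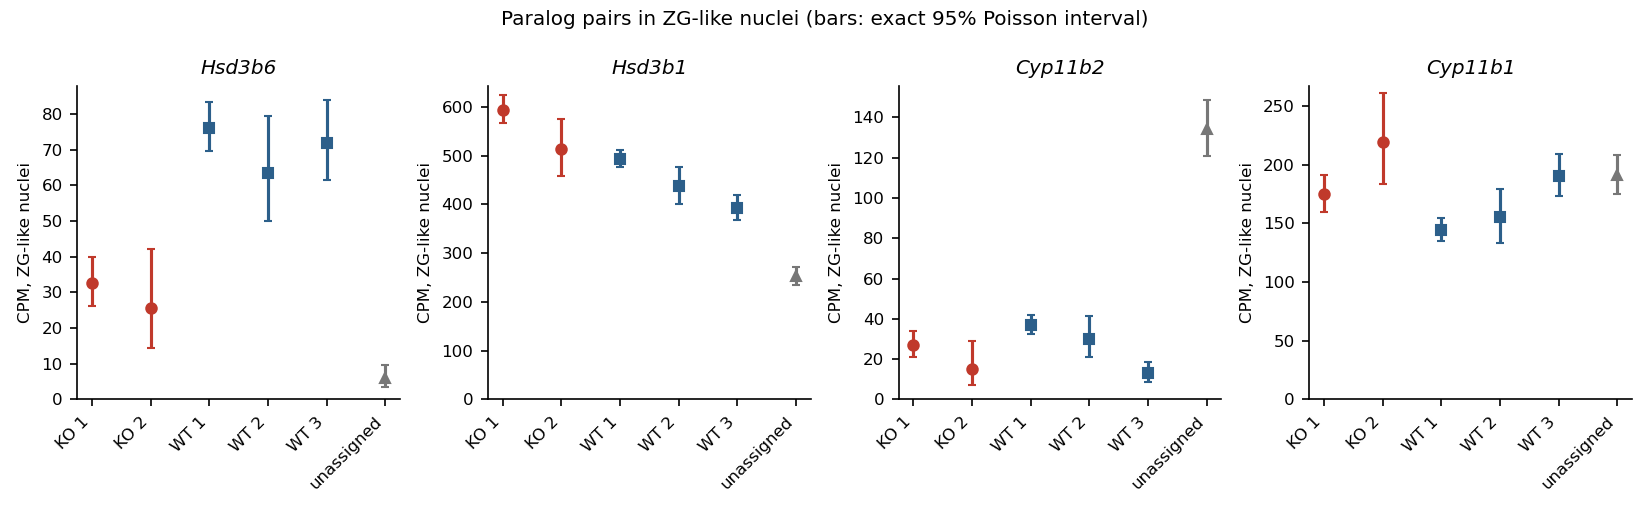
Level (CPM, axis from 0) of Hsd3b6, Hsd3b1, Cyp11b2 and Cyp11b1 in ZG-like nuclei of each library, with exact 95% Poisson intervals that cover counting error only. Hsd3b6 lies at 25.5 and 32.6 CPM in the KO libraries and at 63.4 to 76.1 CPM in WT, Hsd3b1 is higher in KO by a smaller factor, and the unassigned library is lowest for both and highest for Cyp11b2.

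Further in, no gene of the 7 was called. In the Tnc cluster 0 of 7 were called, against 0.0988% of all genes, and Hsd3b6 had a log2 fold of -0.83 ± 0.40 (SE, edgeR adjusted p = 0.817). In the Cthrc1 cluster 0 of 6 tested were called, against 0% of 11334 genes, with Hsd3b6 at -0.64 ± 0.87. In ZF-like nuclei 0 of 5 tested were called, against 0% of 11421 genes, with folds from -0.35 ± 0.40 (Cyp11a1) to 0.36 ± 0.28 (Hsd3b1). Inner cortex-like nuclei likewise gave 0 of 5, against 0% of 9449 genes, with folds from -0.51 ± 0.46 (Cyp11a1) to 0.35 ± 0.32 (Hsd3b1). Over all cortical nuclei 0 of 7 were called, against 0% of 14122 genes, although Hsd3b6 had a fold of -1.14 ± 0.24 (unadjusted p = 0.000927, edgeR adjusted p = 0.569). At an unadjusted p under 0.05 the edgeR test gave 547 genes in the Cthrc1 cluster, 231 in ZF-like, 252 in inner cortex-like and 856 in all cortical nuclei, and DESeq2 called 4, 2, 0 and 16. Hsd3b6 and Cyp11b2 were too low to be tested in ZF-like and inner cortex-like nuclei.

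The change in KO was also compared between ZG-like and ZF-like nuclei in 1 fit. The difference of the KO against WT log2 fold between ZG-like and ZF-like nuclei was -1.51 ± 0.82 (SE) for Hsd3b6 (unadjusted p = 0.0929, edgeR adjusted p = 1), and it was 3.003 without KO 1. ZF-like nuclei held 6 and 0 Hsd3b6 UMIs in KO and 9, 0 and 3 in WT. With so few UMIs the fit cannot decide whether the Hsd3b6 change differs between these classes. None of the 7 genes was called, against 0% of 11840 genes, of which 341 had an unadjusted p under 0.05. Star had a difference of 0.58 ± 0.25, with folds of 0.18 in ZG-like and -0.33 in ZF-like nuclei, and Cyp11a1 one of 0.62 ± 0.30, with 0.33 and -0.35 (edgeR adjusted p = 1 for both).

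**Figure D4:**
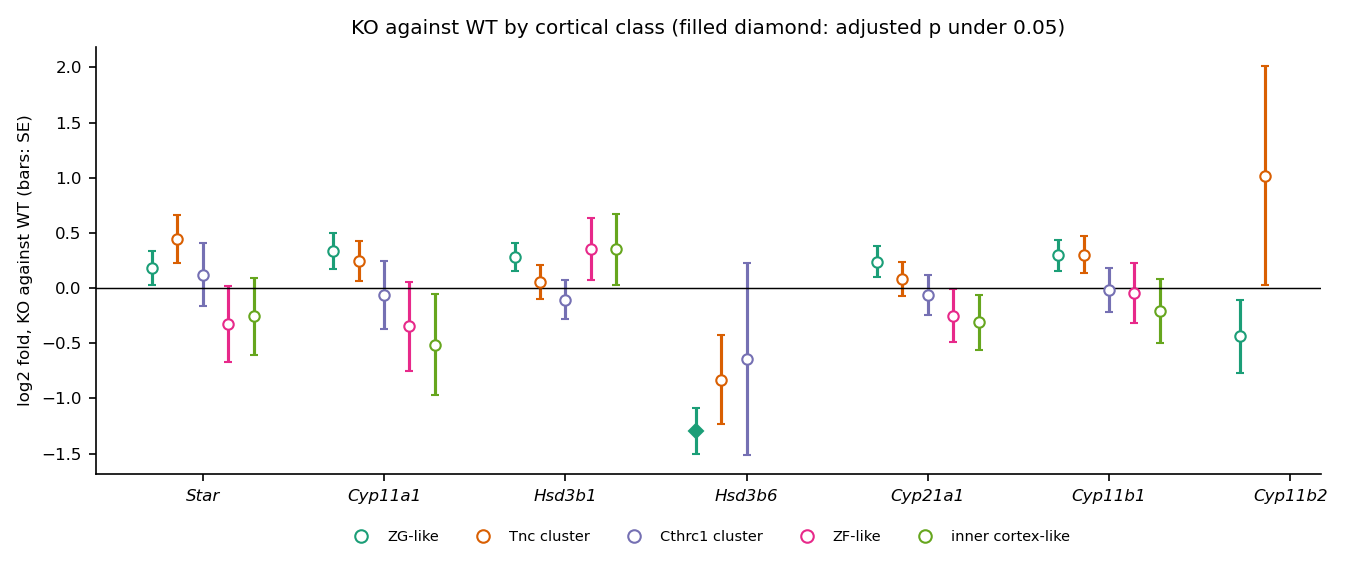
Log2 fold of KO against WT for each gene in the 5 cortical classes, from the edgeR fit, with bars of 1 SE, and a filled diamond where the adjusted p is under 0.05. Hsd3b6 in ZG-like nuclei (-1.29) is the single filled point, and points are left out where a gene was too low to be tested.

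Other measures of ZG-like nuclei also differed between the KO and WT libraries. The summed level of the 12 zona glomerulosa markers was 9883 and 10358 CPM in KO and 10661 to 11856 CPM in WT, without overlap, with 4 of 12 markers below all WT values in both KO libraries and 1 above. Of all genes tested, 11.9% lay below in this way and 14.2% above. Chromaffin markers summed to 169 and 180 CPM in KO and to 71.5 to 142 CPM in WT, with 0 of 13 markers at 0. The lists for endothelial cells (76.9 and 81.6 CPM against 51.9 to 70.0), T or NK cells (556 and 549 against 402 to 441) and adipocytes (41.5 and 32.3 against 13.6 to 28.3) were also higher in both KO libraries. Few members were above all WT values in both KO libraries, 3 of 13 chromaffin, 3 of 13 endothelial, 1 of 10 T or NK cell and 2 of 9 adipocyte markers, and 1 endothelial and 1 adipocyte marker lay below. For the capsule, macrophage, B cell, Schwann cell and pericyte lists, among others, the summed levels of KO and WT overlapped. The 8 zona fasciculata markers summed to 1578 and 1617 CPM in KO and 1497 to 1543 CPM in WT. Of these 8, 1 lay above all WT values in both KO libraries and 1 lay below. Gramd1b alone held 1418 CPM in ZG-like nuclei of all libraries added up, so this sum is mostly a measure of that gene. Gm42418, a gene model that overlaps ribosomal RNA, held 14377 and 10899 CPM in KO, 3528 to 6277 CPM in WT, against 2839 CPM for the unassigned library. The part of these differences in the Hsd3b6 result was not tested.

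The rest of the pathway was read from a list of 60 genes in 6 groups, of which 56 are in the files. Of the 39 tested in ZG-like nuclei, 0 were higher and 1 was lower in KO, against 0.667% of all genes called in either direction, and the median log2 fold was 0.05 against 0.02 for all genes. The 1 called was Scarb1, the receptor that takes up cholesterol esters from high-density lipoprotein. It stood at 319 and 163 CPM in KO and at 528, 248 and 225 CPM in WT, so that KO 1 lay below WT 1 and KO 2 below WT 2 and 3, while the groups overlapped across annotations. Its log2 fold was -0.65 ± 0.14 (SE, edgeR adjusted p = 0.0436), and DESeq2 did not call it (adjusted p = 0.0666). The call was also lost without KO 1, WT 1 or KO 2 (edgeR adjusted p = 0.583, 0.576 and 0.285), without the annotation term, at the coarser clustering, with the 7 genes kept in the clustering and with doublets kept. The unassigned library held 1396 CPM. No listed gene was called in the other cortical classes.

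The pathway list was also read between zones. These genes helped to define the classes, so their folds are given without p. Of 41 tested, 18 were lower and 4 higher in ZG-like than in ZF-like nuclei, while 45.6% of all genes were called in either direction, with a median log2 fold of -0.50 against -0.05 for all genes. Genes of electron transfer to the P450 enzymes had 3 of 6 lower, with Fdx1, the ferredoxin of the mitochondrial enzymes, at -2.54 ± 0.34 (SE) and the cytochrome b5 reductase Cyb5r3 at -1.59 ± 0.24. Cholesterol delivery had 6 of 12 lower, with Scarb1 at -2.99 ± 0.28 and the sterol carrier Gramd1b at -2.98 ± 0.14. Steroid interconversion had 4 lower and 1 higher of 11, with the 5-alpha-reductase Srd5a2 at -4.92 ± 0.13 and Akr1b7 at -3.93 ± 0.41, and Hsd17b12 at 0.99 ± 0.16. The genes that drive the pathway were split, 5 lower and 3 higher of 11. Mrap, the accessory protein of the ACTH receptor, was at -3.12 ± 0.39 and the phosphodiesterase Pde8b at -2.46 ± 0.13, while the kinase subunit Prkacb (0.59 ± 0.11) and the ACTH receptor Mc2r itself (0.36 ± 0.13) were higher in ZG-like nuclei.

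Inner cortex-like nuclei differed from ZF-like nuclei in both directions, with 14 of 41 listed genes higher and 12 lower, against 24.8% of all genes called in either direction. Akr1d1, which reduces the steroid ring and is a marker of the class, was higher by 3.92 ± 0.09 (log2, SE) and Hsd17b7 by 1.88 ± 0.23, while Srd5a1 was at -1.86 ± 0.26 and Akr1b7 at -1.01 ± 0.11. Abca1, a cholesterol exporter, was at 1.499 ± 0.07 and the sterol carrier Stard5 at 1.46 ± 0.21, against Soat1, which esterifies cholesterol, at -0.78 ± 0.07 and Scarb1 at -0.69 ± 0.09. Cyb5a (1.41 ± 0.13) and Por (0.35 ± 0.11), which serve the P450 enzymes of the endoplasmic reticulum, were higher, and Fdx1 (-0.55 ± 0.08) and Fdxr (-0.42 ± 0.07), which serve those of the mitochondria, were lower. Mrap (0.61 ± 0.07) and Pde8b (0.59 ± 0.06) were higher, and Mc2r (-1.25 ± 0.07) and Nr4a2 (-0.50 ± 0.17, and -0.09 without the unassigned library) lower.

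RNA of the 7 genes was also counted in nuclei that should not make it. Non-cortical nuclei held 20.2% ± 5.41 (SD, n = 6 libraries) of the cortical CPM of the same library for Cyp21a1, 10.6% ± 1.52 for Hsd3b1, 9.57% ± 2.01 for Star, 8.40% ± 2.09 for Cyp11a1 and 5.63% ± 1.36 for Cyp11b1. Hsd3b6 and Cyp11b2 gave 42 and 10 UMIs outside the cortex in all, 5.43% ± 1.2001 and 1.88% ± 2.19. The genes did not share 1 ratio of outside to cortical level. Cyp21a1 exceeded Star by 10.6 percentage points ± 4.13 (SD), Cyp11a1 by 11.8 ± 3.56, Hsd3b1 by 9.54 ± 4.19 and Cyp11b1 by 14.5 ± 4.42, in 6 of 6 libraries each. These differences are given as values, with no test.

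In endothelial-like, chromaffin-like and capsule or fibroblast-like nuclei Cyp21a1 had the highest and Cyp11b1 the lowest mean share of these 5 genes, while the order of the other 3 differed. Endothelial-like nuclei held 21.2% ± 6.25 (SD, n = 6) of the cortical level for Cyp21a1, 10.2% ± 2.19 for Star, 9.30% ± 2.10 for Hsd3b1, 8.57% ± 2.77 for Cyp11a1 and 6.19% ± 1.59 for Cyp11b1. Chromaffin-like nuclei held 17.5% ± 5.29 for Cyp21a1 and 3.69% to 7.06% for the other 4. Capsule or fibroblast-like nuclei held 19.7% ± 4.96 for Cyp21a1, 15.7% ± 2.81 for Hsd3b1 and 13.2% ± 5.56 for Star. Smaller classes did not all follow this. Leaving out 1 hepatocyte-like nucleus, Cyp21a1 in WT 2 ran from 495 CPM (Schwann or sustentacular-like) to 2059 CPM (T or NK-like). Its cortical nuclei held 2377 CPM. Mesothelial-like nuclei of the unassigned library held 372 CPM of Cyp11b1 (cortical 1047) and 537 CPM of Cyp21a1 (cortical 2013). With marked doublets kept, the non-cortical level rose for all 7 genes, to 24.9% for Cyp21a1, 16.0% for Hsd3b1 and 11.4% for Cyp11b1. Tnxa overlaps Cyp21a1 on the opposite strand, and its part in the Cyp21a1 counts was not tested. In endothelial-like nuclei KO and WT did not differ by call for any of the 5 genes tested, against 0.019% of all genes, with folds from -0.24 ± 0.28 (Cyp21a1) to 0.38 ± 0.27 (Hsd3b1).

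**Figure D5:**
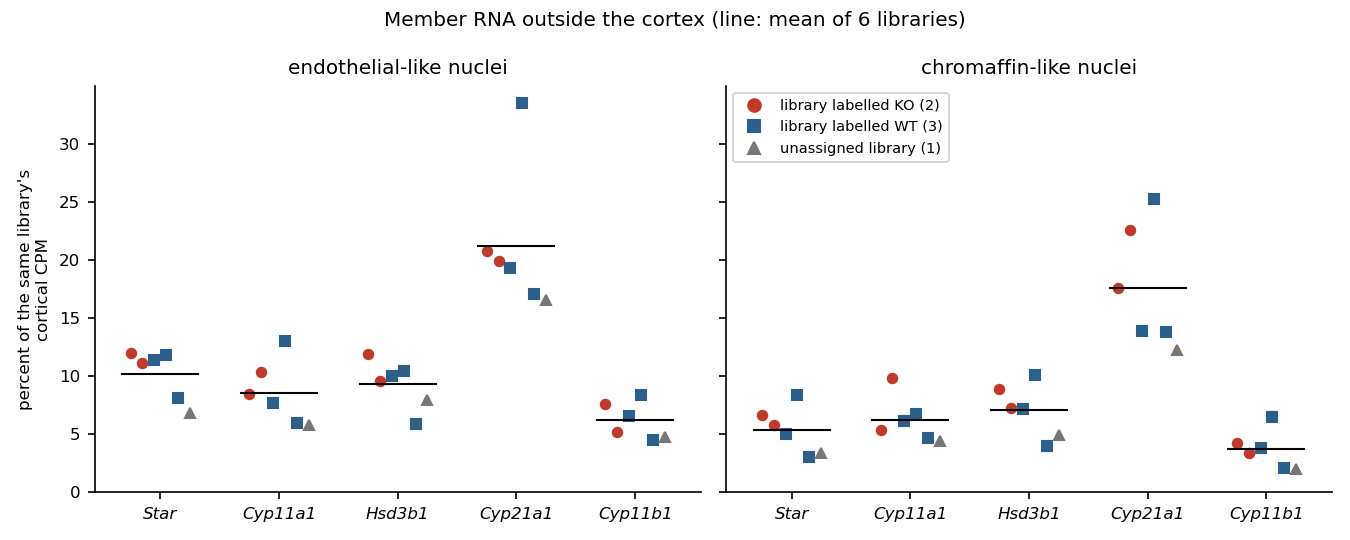
Level in endothelial-like (left) and chromaffin-like (right) nuclei as a percent of the same library's cortical CPM (axis from 0), with 1 point per library and a line at the mean of 6 libraries, for the 5 genes with enough UMIs. Cyp21a1 is the highest of the 5 in every library, at a mean of 21.2% and 17.5%.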

How the data were processed

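Raw UMI counts per gene and nucleus were used as deposited by the authors. Per the labels' protocols, nuclei were sorted on DAPI and sequenced with the 10x 3' method. Cell Ranger 4.0.0 is named in the file headers of KO 1 and WT 1 and 3.1.0 in the others, and mm10 and Seurat in the submitters' processing notes. No source used here says whether introns were counted.

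Nuclei needed 300 genes and under 5% mitochondrial UMIs, which 48 barcodes failed. Scrublet scores marked 642 doublets, at 0.8% per 1000 barcodes, where its automatic threshold marked 521. Clusters came from scanpy 1.11.5 (2000 variable genes without the 7 genes, 30 components, Harmony, 20 neighbours, Leiden resolution 0.8), and a name needed 3 listed markers at a log2 fold of 1 in 10% of nuclei. UMIs of a class were added up within each library and tested with edgeR 4.0.16 (R 4.3.3, TMM, filterByExpr, Benjamini-Hochberg adjustment, threshold 0.05). DESeq2 1.42.0 was an alternative. Intervals and the floor of 3 UMIs cover counting error only. Nothing says more about the source of each library than its pair of glands, so p-values measure the spread between these libraries. In edgeR this spread is moderated over all genes, and the SE was derived from the fold and its F statistic.

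The genes and lists were chosen with earlier results of these data known. Named genes beyond the 7 were, by rule, those of the pathway list called in KO against WT, the 2 largest folds per group and direction among those called between zones, and the 3 nearest in likeness. A gene that this rule names and a sequence are not reported here. Tested on simulated data, KO against WT in ZG-like nuclei (10652 genes) recovered 55% of genes changed by a log2 fold of 1 and 93% of those changed by 2.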

Additional observations from a re-analysis of the deposited data

Results flagged for a closer look

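Cyp11b2 in ZG-like nuclei of the unassigned library stood at 134 CPM, while the other 5 libraries lay between 13.1 and 36.7 CPM. Its gap to the nearest library was too large a part of the whole range by Dixon's test. This was 1 of 31 groups tested, and about 5% of groups are expected to pass by chance. The same library had the lowest Hsd3b6 and Hsd3b1 levels and the highest Star level in ZG-like nuclei, and its labels disagree on its genotype.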

How the results depend on the processing

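No paired analysis was possible because replicate numbers follow accession order and name a library only. Each of these settings changed 1 choice. With no filter on low genes, KO against WT called 282 genes in ZG-like nuclei, 41 in the Tnc cluster, 55 in the Cthrc1 cluster, 35 in ZF-like, 24 in inner cortex-like, 162 in all cortical and 44 in endothelial-like nuclei, and the difference of the KO effect between ZG-like and ZF-like nuclei gave 24. DESeq2 called 4, 2, 16 and 4 in the Cthrc1 cluster, ZF-like, all cortical and endothelial-like nuclei, and 731 between ZG-like nuclei and the Tnc cluster. Without the annotation term, 0 genes were called in ZG-like, Tnc cluster and endothelial-like nuclei, and Hsd3b6 in ZG-like nuclei had a log2 fold of -1.26. With the unassigned library as KO those 3 counts were 0, Hsd3b6 had -1.95, Cyp11b2 had 1.14 and Scarb1 had 0.97, the last 2 with the sign turned. With it as WT the counts were 4, 1 and 1, Hsd3b6 had -1.08 and Star turned to -0.13.

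With 1 library left out in turn, the KO against WT counts ran from 9 to 368 in ZG-like nuclei, 15 to 35 in the Tnc cluster, 4 to 34 in the Cthrc1 cluster, 2 to 24 in ZF-like, 0 to 5 in inner cortex-like, 1 to 32 in all cortical and 19 to 31 in endothelial-like nuclei, and 0 to 5 for the difference between zones. Where 1 KO library was left, it is assumed to vary like the WT libraries. In ZG-like nuclei the fold ran from -1.43 to -1.25 for Hsd3b6, from -0.20 to 0.52 for Star and from -0.023 to 0.69 for Cyp11a1. The difference of the Hsd3b6 fold between zones ran from -1.97 to 3.003, and that of the Cyp11b2 share in the Tnc cluster from -0.56 to 1.99 percentage points.

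A clustering resolution of 1.2 gave 18 called genes in the Tnc cluster, 5 in the Cthrc1 cluster and 1388 between these 2 classes. With the 7 genes kept in the clustering, 3 and 1 were called in the Tnc and Cthrc1 clusters, and 1977 between ZG-like nuclei and the Tnc cluster. With doublets kept, 0 were called in endothelial-like nuclei. The Tnc cluster gave no value at a resolution of 0.5 or with doublets kept, since no such cluster formed. The cause of these changes was not tested. The least deep library held 15 Hsd3b6 and 9 Cyp11b2 UMIs in ZG-like nuclei, which limits both genes.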
